A study of Mus musculus with 4 samples.

Results

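The genes described here are 10 immediate early and stress response genes, chosen by name: Jun, Junb, Jund, Fos, Egr1, Ier2, Atf3, Myc, Btg2 and Mt1. Their N6-methyladenosine (m6A) peaks were read from 2 lists of mouse liver RNA, as every row that carries the gene's symbol. These rows came to 14 of 14693 peaks in the list from Alkbh5-HKO livers (HKO) and 15 of 14057 peaks in the list from Alkbh5flox/flox livers (FF). Of the 10 genes, 8 had a peak, 7 of them in both lists and 1, Mt1, in the FF list alone, while Jund and Fos had none.

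In methylated RNA immunoprecipitation sequencing, fragmented RNA is pulled down with an antibody to m6A and sequenced beside the input RNA, and a peak is a stretch of exon where immunoprecipitated (IP) reads exceed those predicted from the input. The HKO list came from livers of mice labelled Alkbh5-HKO, and the FF list from livers of mice with both Alkbh5 alleles floxed. Both groups were on normal chow and 9 weeks old. For each genotype, RNA of 3 mice was pooled to 300 μg, and an IP library and an input library were made from the pool. The abbreviation HKO is not spelled out in the labels, and the sources used here give neither the promoter that drives any Cre recombinase nor the sex of the mice.

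With 1 pool and 1 IP per genotype there is no replicate, so no difference between the lists was tested. Alkbh5, which encodes an m6A demethylase and is the gene targeted in these mice, had 0 peaks in the HKO list and 3 in the FF list. A peak in either list was found on 7 of 8 hepatocyte marker genes and 3 of 7 Kupffer cell and macrophage markers. Such peaks lay on 4 of 6 endothelial, 5 of 6 stellate cell and fibroblast, 2 of 5 cholangiocyte and 0 of 5 lymphocyte markers. Over all protein-coding genes this share was 40.8%. Of the 7 hepatocyte markers, 3 were found in both lists, 3 in HKO only and 1 in FF only. The stellate cell and fibroblast markers were 3 in both and 2 in HKO only, and the cholangiocyte markers 1 and 1. The Kupffer cell, macrophage and endothelial markers found were all in both lists. Over all genes found in either list, the share in both was 75.6%. Fold enrichment and q-value are the authors' own values for each peak, IP over input. The median fold was 10.4 for HKO peaks and 8.80 for FF peaks, and the median log10 q was -8.70 for HKO peaks and -7.79 for FF peaks. Fold values of separate IP reactions are set side by side below without a direction being read from them. The lists carry no read totals, so the depth behind each value is unknown, and a gene without a peak may have had too few reads to give one.

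Immediate early genes are transcribed within minutes of a growth factor, hormone or stress signal, without new protein synthesis, through transcription factors that already sit in the cell. Their mRNAs are short and are degraded fast, so that the response is a pulse. Several of them encode transcription factors that carry the signal to later genes: JUN and FOS family proteins pair through leucine zippers to form the dimer AP-1, and in liver these genes are known for their rapid rise after partial hepatectomy. m6A is placed by a methyltransferase complex within a short consensus sequence, most often GGACT in DNA letters. It is known as a mark that can shorten the life of an mRNA.

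Among 9650 genes with a peak in either list, 75.6% had peaks in both, 13.2% were found in HKO only and 11.2% in FF only. Of the 8 immediate early and stress response genes found in either list, 7 were in both, 0 were found in HKO only and 1 in FF only. With 8 genes, a share of 7 is near the share over all genes. Of 21900 protein-coding genes in the RefSeq table, 40.8% had a peak in either list. No peak of another gene name lay within the span of any of the 10 genes, and no other RefSeq gene overlapped them, Jund and Fos included.

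Jun encodes c-Jun, the founding member of the JUN family and the main target of the c-Jun N-terminal kinases. It had the most peaks of the 10 genes, with 5 in the HKO list and 3 in the FF list. Of genes with a peak in the HKO list, 2.42% had 5 or more. In the FF list 1.77% had 5 or more, and the share with 3 or more was not counted. Jun is a gene without introns on the minus strand of chromosome 4 (chr4:95049036-95052222, GRCm38.p6, 3187 bp), so distance along the gene is distance along the mRNA. Its most enriched peak lay at chr4:95049751-95050495 in the HKO list, with fold 86.6 and log10 q -184. In the FF list it lay at chr4:95049721-95050584, with fold 43.4 and log10 q -262. In both lists this peak lay in the distal part of the mRNA, at bases 1728 to 2472 in the HKO list and 1639 to 2502 in the FF list. Its fold was higher than that of 98.7% of HKO peaks and of 97.4% of FF peaks.

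The second stretch that both lists held in Jun lay at bases 597 to 954 in HKO livers (fold 4.84, log10 q -10.5) and 507 to 924 in the FF list (fold 7.57, log10 q -8.64), an overlap of 328 bp. The third lay at the gene start and had the same 5′ edge in both lists, at base 31. It ran to base 150 in HKO livers (fold 15.3, log10 q -3.04) and to base 239 in the FF list (fold 6.85, log10 q -4.30). The same fold, q and p were listed for 135 HKO peaks, this one among them, and for 8 FF peaks in the case of the FF values. Jun also had 2 short HKO peaks that overlapped no FF peak, at bases 358 to 448 (91 bp, fold 9.33, log10 q -3.29) and 1460 to 1549 (90 bp, fold 4.67, log10 q -2.36). Both lay between FF peaks without touching them.

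The sequence at the start of Jun is shown because the 5′ peak of both lists begins inside it. RefSeq promoter windows (GRCm38.p6) were at hand for 7 of the 10 genes, all but Egr1, Ier2 and Myc. The first line gives the 100 bases before the start of Jun (chr4:95052223-95052322, minus strand), with a match to TGACNTCA in capitals. These letters cover the cyclic AMP response element and the related element through which c-Jun acts on its own promoter. The second line gives bases 16 to 45 of the Jun transcript (chr4:95052178-95052207, minus strand), with GGACT in capitals. The third gives bases 21 to 50 of Junb (chr8:84978699-84978728, minus strand), again with GGACT in capitals.
Jun promoter: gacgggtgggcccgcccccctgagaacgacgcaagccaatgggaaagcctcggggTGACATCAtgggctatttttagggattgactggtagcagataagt
Jun transcript start: gataaGGACTcagagttgcactgagtgtgg
Junb transcript start: gccgagcactggGGACTttgagggtggcca

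GGACT lay at bases 21 to 25 of Jun, ahead of the first base of its peak, 31, in both lists. In Junb it lay at bases 33 to 37, while the first Junb peak began at base 149 in the HKO list and at base 209 in the FF list. Of the 7 genes with a window, these 2 held GGACT on the transcribed strand of their first 50 bases, as did 5.76% of 32851 RefSeq windows. TGACNTCA, searched on both strands in the 250 bases before the start, was found in 2 of the 7, Jun and Btg2, and in 7.49% of all windows. In Jun it lay 45 to 38 bases before the start. In Btg2 the letters TGACGTCA lay 166 to 159 bases before the start, and a second match lay at 150 to 143. The motifs were chosen after the sequences had been seen, and a match describes letters, not a bound factor or a methylated base.

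**Figure D1:**
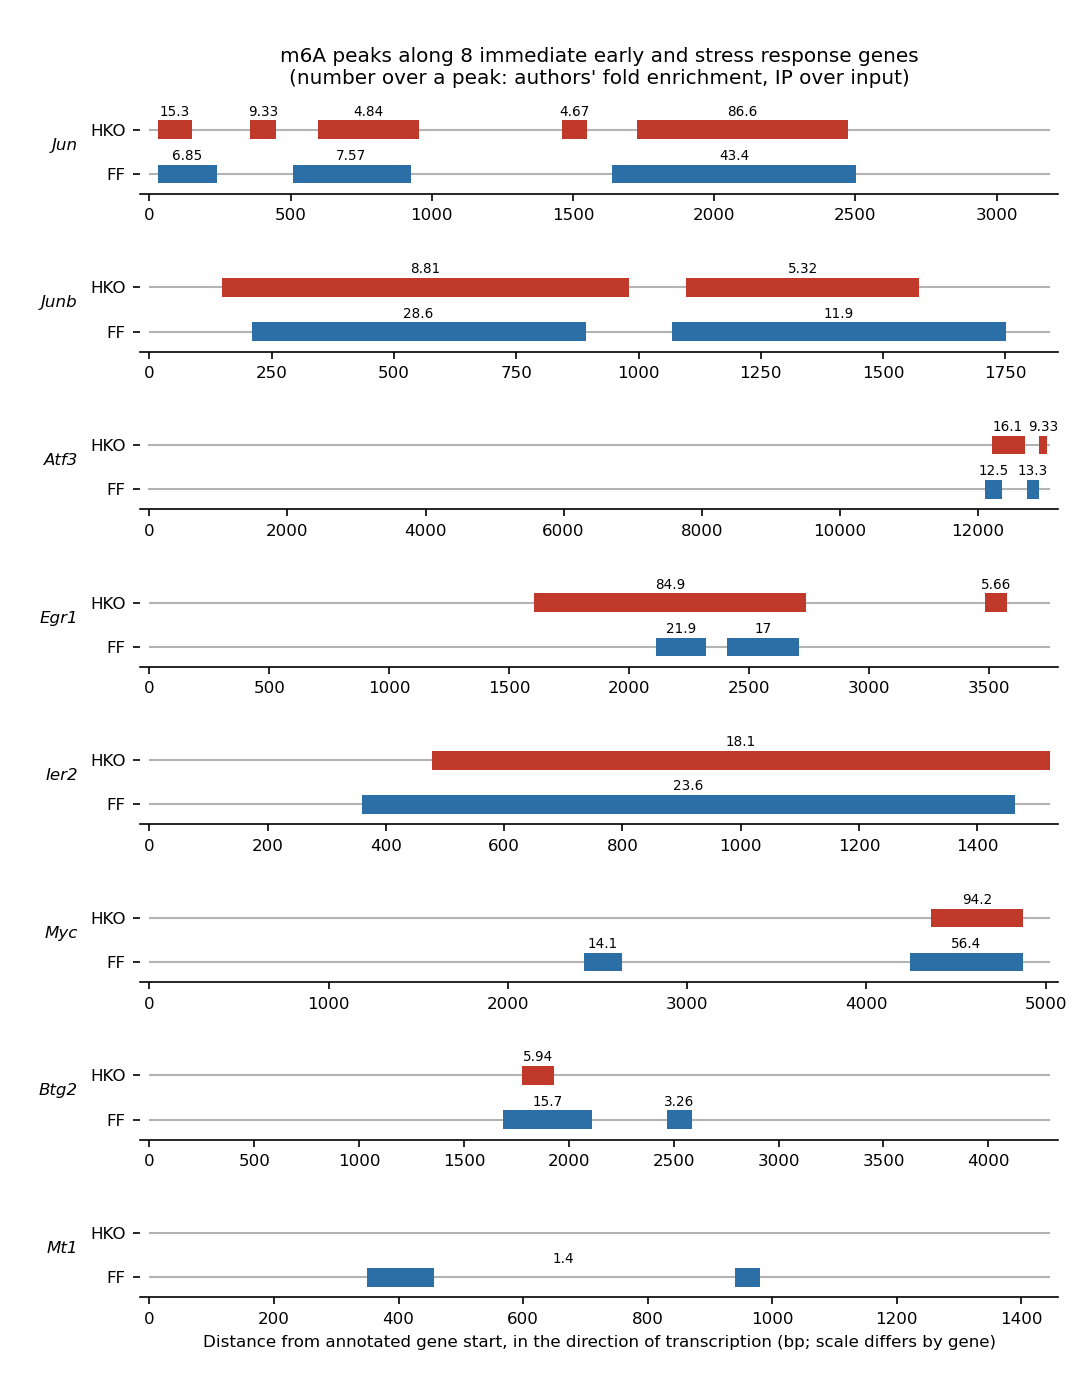
Peaks along the 8 genes with a peak, by distance from the annotated gene start in bp (the scale differs by gene), with the HKO list above the FF list and the authors' fold enrichment over each peak. Bars are exon blocks, so the 2 blocks of the Mt1 peak share 1 fold; the Jun peak at the start has the same 5′ edge in both lists, and the 1134 bp Egr1 peak of the HKO list spans both FF peaks.

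Junb encodes JunB, which pairs with the same partners as c-Jun and often restrains it. It is a gene without introns too (chr8:84976909-84978748, minus strand, 1840 bp). Each list held 2 Junb peaks, and together they covered 71.1% of the gene in the HKO list and 74.2% in the FF list. The median over all genes with a peak was 1.86% and 1.85% of the gene span, but spans include introns, which Junb lacks. In bases, Junb had 1308 bp under a peak in the HKO list and 1366 bp in the FF list. The medians over all genes with a peak were 421 bp and 414 bp. The proximal peak lay at bases 149 to 980 in HKO livers (fold 8.81, log10 q -84.1) and at bases 209 to 891 in the FF list (fold 28.6, log10 q -89.6). The distal peak lay at bases 1098 to 1573 in HKO livers (fold 5.32, log10 q -89.7) and at bases 1069 to 1751 in the FF list (fold 11.9, log10 q -79.0). The HKO peaks overlapped an FF peak over 82.1% and 100% of their length. The folds stood at the 43.2 and 26.8 percentiles of the HKO list and at the 93.3 and 64.7 percentiles of the FF list. By fold, Junb was thus of middle or low enrichment in HKO and of high or middle enrichment in FF, each within its own list. By q, its peaks stood high in both lists. A larger q than theirs was listed for 89.9% and 90.5% of HKO peaks and for 91.9% and 90.7% of FF peaks. The fold ranks thus differed between the lists, but without replicates no change in methylation is read from them.

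Jund and Fos had no peak in either list. Jund encodes JunD, the JUN protein that is present in resting cells and responds least to stimuli, and Fos encodes c-Fos, an AP-1 partner that cannot pair with itself and needs a JUN protein. Their spans are 2878 bp (chr8:70697739-70700616) and 3385 bp (chr12:85473890-85477274).

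Atf3 encodes a stress-induced factor of the ATF and CREB family that also pairs with JUN proteins and mostly represses transcription. It is the longest of the 10 genes (chr1:191170296-191183333, minus strand, 13038 bp), and all 4 of its peaks, 2 in each list, lay within the last 1000 bp. The more proximal pair lay at chr1:191170655-191171134 in the HKO list (480 bp, fold 16.1, log10 q -4.81) and at chr1:191170985-191171224 in the FF list (240 bp, fold 12.5, log10 q -2.33), and shared 150 bp. The pair nearest the gene end lay at chr1:191170326-191170446 in the HKO list (121 bp, fold 9.33, log10 q -1.99) and at chr1:191170446-191170625 in the FF list (180 bp, fold 13.3, log10 q -2.54). These met at 1 bp only and count as shared by that base. Of the bases covered in either list, 17.4% were covered in both, the lowest share of the 7 genes with peaks in both lists. The q-values were weak: 21.7% of HKO genes and 7.62% of FF genes had a larger q at their best peak. The fold, q and p of the FF peaks were listed for 171 and 143 FF peaks, these included.

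Egr1 encodes a zinc finger transcription factor that serum response factor switches on, and in liver it is known as an early responder to injury and to insulin. The gene lies on the plus strand of chromosome 18 (chr18:34861207-34864956, 3750 bp). In the HKO list it had a peak of 1134 bp at chr18:34862809-34863942, with fold 84.9 and log10 q -55.6. In the FF list the same stretch held 2 separate peaks, at chr18:34863316-34863525 (210 bp, fold 21.9, log10 q -8.32) and chr18:34863614-34863912 (299 bp, fold 17.0, log10 q -23.4). Both FF peaks lay wholly inside the HKO peak, which began 507 bp before the first of them and ended 30 bp after the second. Peaks thus covered 1224 bp of Egr1 in the HKO list and 509 bp in the FF list, the widest difference in covered bases among the 10 genes. A further HKO peak at chr18:34864688-34864777 (90 bp, fold 5.66, log10 q -3.09), centred 223 bp from the gene end, overlapped no FF peak.

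Ier2, immediate early response 2, encodes a short nuclear protein whose gene has no introns (chr8:84661331-84662852, minus strand, 1522 bp). It had 1 peak in each list, and these were alike. The HKO peak was 1045 bp long at bases 478 to 1522 (fold 18.1, log10 q -112), and the FF peak 1104 bp long at bases 359 to 1462 (fold 23.6, log10 q -120). They shared 985 bp, 84.6% of the bases covered in either list, which is the highest share among the 10 genes. The HKO peak reached the annotated gene end, and the FF peak stopped 60 bp before it.

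Myc encodes the transcription factor c-MYC, which drives cell growth and whose mRNA is known for its short life. The gene lies on the plus strand of chromosome 15 (chr15:61985341-61990361, 5021 bp, with 4 RefSeq transcripts). Its distal peak had the highest fold of the 10 genes in each list, at 94.2 in the HKO list and 56.4 in the FF list, above 98.9% of HKO peaks and 98.5% of FF peaks. It lay at chr15:61989702-61990211 in the HKO list (log10 q -137) and at chr15:61989582-61990211 in the FF list (log10 q -128). The 3′ edge was the same in both lists, 150 bp before the gene end, and the HKO peak began 120 bp later. A second peak in the middle of the gene, at chr15:61987765-61987975 (211 bp, fold 14.1, log10 q -5.21), was in the FF list alone.

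**Figure D2:**
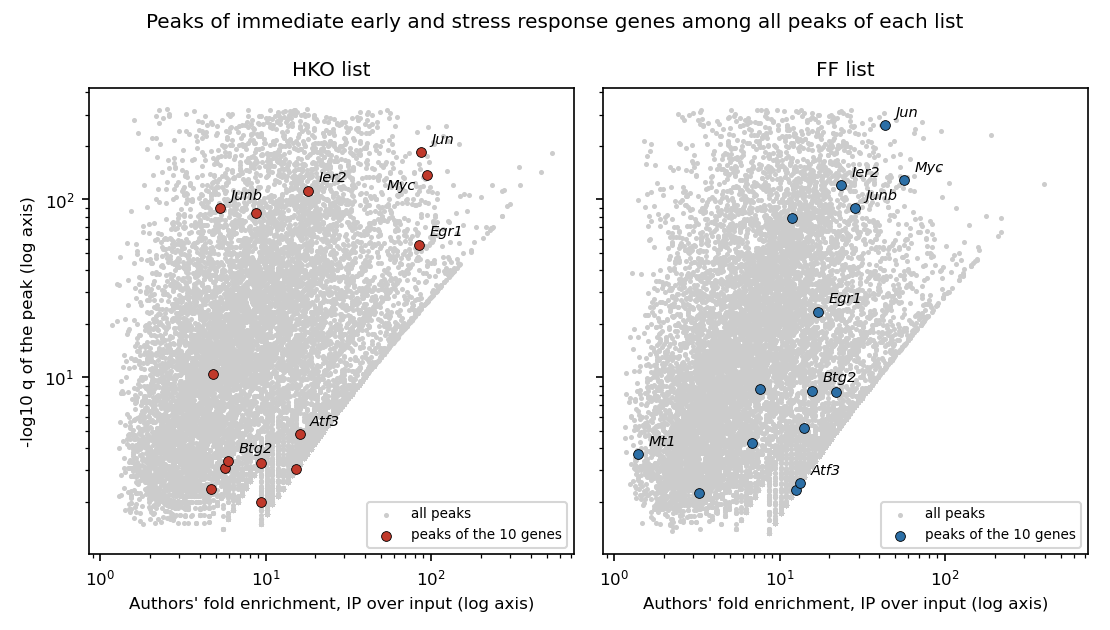
Fold enrichment of each peak (x, log axis) against -log10 of its q (y, log axis) in the HKO list (left) and the FF list (right), with all peaks in grey and those of the 10 genes in colour; gene names mark the peak of smallest q. Peaks of q listed as zero, 305 in the HKO list and 240 in the FF list, are not drawn and include none of the 10 genes. Jun and Myc sit at the upper right in both panels. Of the named points, Btg2 is the lowest in the HKO panel and Atf3 in the FF panel.

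Btg2 encodes an antiproliferative protein, induced by growth factors and by p53, that brings the CCR4-NOT deadenylase to mRNAs. The gene lies on the minus strand of chromosome 1 (chr1:134074865-134079155, 4291 bp). The HKO list held 1 peak, at chr1:134077229-134077378 (150 bp, fold 5.94, log10 q -3.37). It lay wholly inside an FF peak at chr1:134077049-134077468 (420 bp, fold 15.7, log10 q -8.43). A second FF peak, at chr1:134076571-134076690 (120 bp, fold 3.26, log10 q -2.23), overlapped no HKO peak. Btg2 had 150 bp under a peak in the HKO list and 540 bp in the FF list, the opposite order to Egr1. A larger q at the best peak was found for 13.2% of HKO genes and 39.1% of FF genes.

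Mt1 encodes metallothionein 1, a small cysteine-rich protein that binds zinc and copper. In liver it is induced by metals through the factor MTF1, and by glucocorticoids and inflammation. Mt1 lies on the plus strand of chromosome 8 (chr8:94178883-94180327, 1445 bp, with 2 RefSeq transcripts). It had 0 peaks in the HKO list and 1 in the FF list, with exon blocks of 147 bp in all between 94179232 and 94179862. The fold was 1.40, lower than that of all but 0.341% of FF peaks, and the log10 q was -3.71. Its neighbour Mt2, 5315 bp away and named here after its values were seen, had a peak in both lists, with fold 9.28 and log10 q -59.6 in HKO livers, and fold 3.61 and log10 q -45.0 in FF livers. Mt1 and Mt2 are close copies that may share reads, which was not tested. With its fold of 1.40, the Mt1 peak is weak and uncertain.

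The promoter window of Mt1 is shown because Mt1 is the gene found in 1 list alone and is regulated by metal through short promoter elements. Whether metal acts through the stretch shown was not tested. The line gives the 200 bases before the RefSeq promoter start (chr8:94178889-94179088, plus strand). That start lies 206 bp inside the annotated gene span, so all 200 bases shown lie within the span. Capitals mark a match to the core of the metal response element, searched as TGCACNC or TGCGCNC on both strands.
Mt1 promoter: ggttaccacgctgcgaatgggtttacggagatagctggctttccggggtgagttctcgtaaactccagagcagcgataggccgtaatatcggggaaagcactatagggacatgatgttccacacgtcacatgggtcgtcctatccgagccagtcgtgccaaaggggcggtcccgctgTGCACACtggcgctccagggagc
The match lay 23 to 17 bases before the start. The same letters were found in the 250 bases before the start of 5 of the 7 genes with a window and in 21.4% of all windows, so they are not particular to Mt1. Bases after this start were not searched for the element, so 1 match is not a count of the elements of Mt1.

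**Figure D3:**
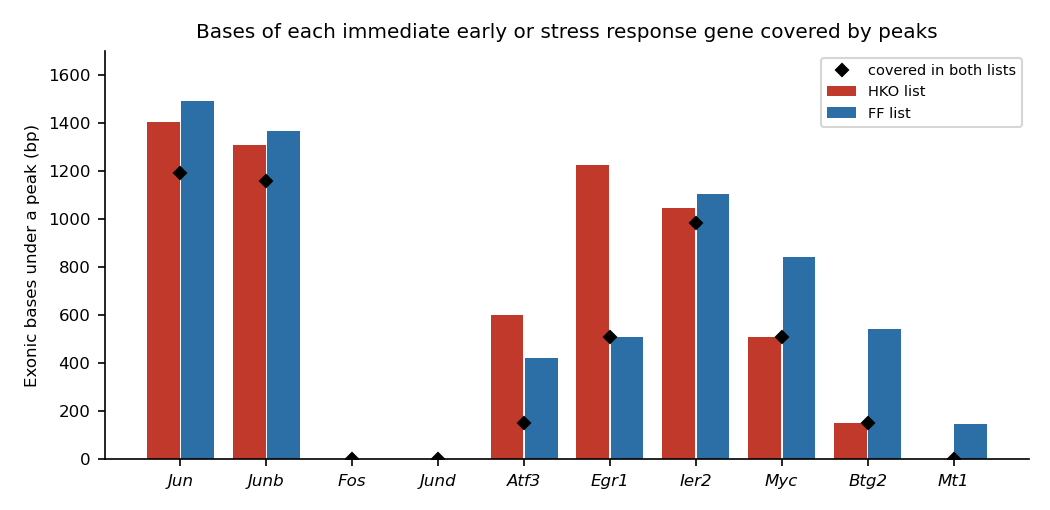
Exonic bases under a peak (bp) in each of the 10 genes, in the HKO list (left bar) and the FF list (right bar), with diamonds for bases covered in both lists. Egr1 and Atf3 had more covered bases in the HKO list, the other 6 genes with a peak had more in the FF list, and Fos and Jund had none.

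Among the peaks of the 10 genes, 11 of 14 HKO peaks and 12 of 15 FF peaks overlapped a peak of the other list. The 3 HKO peaks without overlap (2 on Jun, 1 on Egr1) and the 3 FF peaks without overlap (on Myc, Btg2 and Mt1) stand beside 28.5% of all HKO peaks and 25.2% of all FF peaks. The 3 HKO peaks were 90 to 91 bp long, with log10 q from -3.29 to -2.36, and the 3 FF peaks were 120 to 211 bp long, with log10 q from -5.21 to -2.23. At a log10 q of -5 or lower stood 7 of 14 HKO peaks and 10 of 15 FF peaks of these genes, beside 65.5% and 62.3% of all peaks. Overlapping peaks of these genes had a median length of 480 bp in the HKO list and 419 bp in the FF list, and a median log10 q of -55.6 and -16.0. Peaks without overlap were thus shorter and of larger q than the median overlapping peak in both lists. The same held over all peaks, where the medians were 151 bp in both lists without overlap, and 329 bp (HKO) and 300.0 bp (FF) with it.

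The position of the peaks differed from gene to gene. In the HKO list, 2 of 14 peaks, both on Jun, had their centre at most 500 bp from the start of the gene, beside 7.39% of all HKO peaks. In the FF list, 2 of 15 were, on Jun and Mt1, beside 15.0% of all FF peaks. Within 1000 bp of the gene end lay 6 of 14 HKO peaks and 5 of 15 FF peaks, beside 31.0% and 26.6% of all peaks. The 6 HKO peaks were on Junb, Atf3 (2), Egr1, Ier2 and Myc, and the 5 FF peaks on Junb, Atf3 (2), Ier2 and Myc. In Ier2 (1522 bp) and Mt1 (1445 bp) these windows take in all or nearly all of the gene, so their place among them says little.

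Further genes of the same pathways were taken from 8 lists of 137 genes. Of these, 110 had a peak, 101 in both lists, 6 in HKO only and 3 in FF only. Over all genes, 40.8% of protein-coding genes had a peak, and of genes with a peak 75.6% were in both lists, 13.2% in HKO only and 11.2% in FF only. Of 17 AP-1 and ATF relatives, 14 had a peak and 13 were in both lists. Crem, a cyclic AMP response modulator, had a fold of 72.1 in the HKO list and 19.2 in the FF list at its best peak, centred at the same base. Batf3, an AP-1 factor of dendritic cells, had 1 peak in the HKO list alone (90 bp, fold 5.66, log10 q -2.53). Fosb and Fosl1, like Fos, had none, and neither had Atf2. The rest of these relatives, another FOS family gene among them, had a peak in at least 1 list. In the serum response factor and EGR circuit, the 7 genes found in either list were all found in both, among them Srf and the EGR1 corepressors Nab1 and Nab2. Nab2 had 3 peaks in each list, and its best peak had a fold of 56.7 in the HKO list and 14.8 in the FF list. Egr2, Egr3 and Egr4, the other EGR genes, had no peak.

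Of 32 other immediate early genes, 25 had peaks in both lists. Cebpb, a liver transcription factor of the acute phase, had a best peak of 774 bp in the HKO list (fold 17.7) and 1488 bp in the FF list (fold 32.9). Rhob, a small GTPase gene, had 1517 bp (fold 24.4) and Mcl1, an antiapoptotic BCL2 relative, 928 bp (fold 22.4) in the HKO list. The FF values were, for Rhob, 1903 bp (fold 30.1) and, for Mcl1, 1497 bp (fold 17.0). Dusp5, a nuclear phosphatase of ERK, had 2 peaks, with fold 19.5 and log10 q -4.36 at the peak of smallest q. Dusp5 and Klf6, a zinc finger factor (fold 10.2, log10 q -5.02), were in the HKO list alone. Ier3 was in the FF list alone (fold 12.5, log10 q -2.33). Of 16 kinase genes of the JNK, p38 and ERK pathways, 11 had peaks in both lists and Rps6ka5, which encodes a kinase of histone H3, was in the HKO list alone (91 bp, fold 11.9, log10 q -2.14).

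Of 18 integrated stress and unfolded protein response genes, 16 had peaks in both lists, including Atf5, Hspa5 and Xbp1, while Eif2ak4, which encodes the amino acid sensor GCN2, was in the FF list alone (91 bp, fold 9.40, log10 q -1.52). Among 15 metal and oxidative stress genes, 10 had peaks in both lists, with the smallest q on Slc39a14, a zinc importer, Keap1 and Srxn1. Nqo1, a quinone reductase, was in the HKO list alone (fold 28.4, log10 q -14.0) and Gsr, glutathione reductase, in the FF list alone (fold 4.90, log10 q -2.73). The 11 MYC and MAX network genes found in either list were all found in both. Fbxw7, which encodes the ubiquitin ligase subunit that marks c-MYC for decay, had a best peak of fold 60.2 in the HKO list and 176 in the FF list. Of 9 p53 targets and BTG/TOB family genes with a peak, 8 were in both lists. They included Btg1, Tob1 and Gadd45g, and Cnot8, a CCR4-NOT deadenylase subunit, was in the HKO list alone (fold 6.79, log10 q -2.40). Of the 9 pathway genes in 1 list alone, Nqo1 and Klf6 were the 2 with a log10 q below -5.

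**Figure D4:**
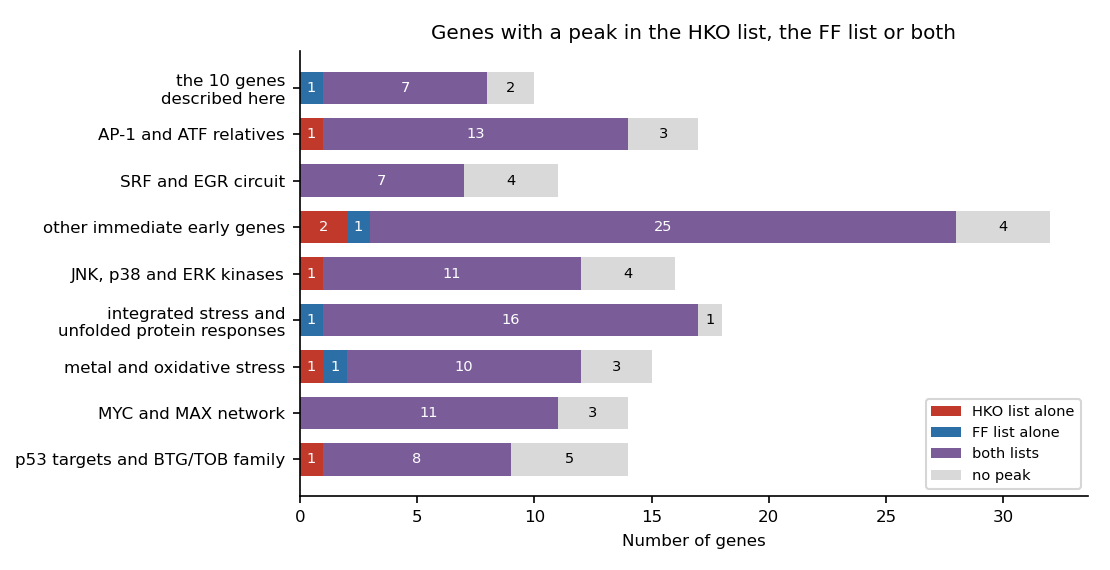
Number of genes (x) with a peak in the HKO list alone, the FF list alone, both lists or neither, for the 10 genes described here (top) and for 8 pathway lists. Genes with peaks in both lists make up most of every bar, and genes in 1 list alone number at most 3 in any list.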

How the data were processed

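MeRIP-seq compared the Alkbh5-HKO and Alkbh5flox/flox mouse livers, with an IP and an input library each, grouped by title. Per the series design text, the authors called peaks with exomePeak 2.16.0 at a q of 0.05, IP over input. Per the submitters' processing notes, fastp 0.19.11, BWA 0.7.12, HOMER 4.9.1 and GRCm38.p6 were used. The fragment and read lengths were about 100 nt and 150 bp, per the labels. The sources name different antibodies and library kits, so whether reads kept their strand was not settled here.

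The deposited score column is a p-value, since its log10 equals the listed log10 p to within 0.02. The deposited log10 q is minus infinity, a q listed as zero, for 305 HKO and 240 FF peaks, and does not rank these. The deposited fold enrichment is a ratio, IP against input, from the authors' caller.

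Lists were read with Python 3.11.15, pandas 2.3.3 and numpy 2.4.6, and drawn with matplotlib 3.10.9. Peaks were called shared where exon blocks on 1 strand had 1 bp or more in common. The code for this was run on the FF list against a copy with slightly shifted or removed peaks. That checks the code, not the rule. Distances were taken to RefSeq gene spans (GRCm38.p6). Alternatives used a q of 1e-05, a fold of 2, lists of equal length, other overlap rules and other windows. The 10 genes and the pathway lists were chosen with earlier results of these data known. Named pathway genes had a peak in 1 list alone, were among the 3 of smallest q in their list, or were relatives without a peak. Mt2 was named as the neighbour of Mt1. No search for genes of like pattern was made, since 2 lists give too few points. The values of 1 gene of the AP-1 and ATF list are not reported here.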

Additional observations from a re-analysis of the deposited data

How the results depend on the processing

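With 10 genes, counts move by single peaks. The numbers of the 10 genes with peaks in both lists (7) and in the HKO list alone (0) moved by less than 1.5 times under all 3 alternatives tried on them. With both lists limited to a q of 1e-05, 5 genes had peaks in both, namely Egr1, Ier2, Jun, Junb and Myc, and Btg2 took the place of Mt1 as the gene in the FF list alone. With a fold of 2 or more required, 0 genes were in the FF list alone, because the Mt1 peak has a fold of 1.40. With both lists limited to a q of 1e-05, 7 HKO peaks of these genes overlapped an FF peak, in place of 11, and 0 HKO peaks, in place of 3, overlapped none. Requiring an overlap of 50% of the shorter peak removed the Atf3 pair that met at 1 bp and left 10 HKO and 11 FF peaks shared. The counts by position moved too: with windows of 200 bp at the start and 500 bp at the end, 1 HKO and 1 FF peak lay at the start and 3 HKO and 3 FF peaks at the end. With the nearest edge of the peak in place of its centre, 4 HKO and 4 FF peaks lay at the start and 8 FF peaks at the end. Of 37 values under an alternative, 27 were within 1.5 times and 10 moved by more. No paired analysis was possible because each genotype had 1 pool. Depth limits the lists to an unknown degree, since they give no read totals.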

Other observations

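Many peaks carried identical values. Apart from peaks with a q listed as zero, 39.7% of HKO peaks and 37.9% of FF peaks had a fold, q and p that another peak of the same list had too. The most frequent fold was 11.9 in the HKO list (345 peaks) and 11 in the FF list (318 peaks). On the 10 genes, 5 of 14 HKO peaks and 5 of 15 FF peaks were of this kind. In the HKO list these were the 5′ Jun peak (values listed for 135 peaks), both Jun peaks without overlap (3 and 2), the Atf3 peak nearest the gene end (4) and the Btg2 peak (11). In the FF list they were both Atf3 peaks (171 and 143), the 5′ Jun peak (8), the second Egr1 peak (2) and the Myc peak without overlap (2). The main peaks of Jun, Junb, Ier2 and Myc and the long Egr1 peak of the HKO list had values that no other peak of their list had. A fold of 9.33 was listed for 190 HKO peaks, among them a peak of Jun and a peak of Atf3.

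Peak edges moved in steps. Over 8671 overlapping pairs of peaks with 1 block each, the distance between an HKO edge and its FF edge was within 1 bp of a multiple of 30 bp for 94.4% of 17342 edges, and 23.7% of edges were equal. For the 12 pairs on the 10 genes, 20 of 24 edges were within 1 bp of such a multiple and 2 were equal, the 5′ edge of Jun and the 3′ edge of Myc. The median distance was 90.0 bp on these genes and 30 bp over all pairs. A shift of 30 bp, such as that of the 3′ edge of the main Jun peak, is 1 step.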
